A study of Homo sapiens and synthetic construct with 14 samples.

Results

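The YY1 elements of the benchmark library were 129 DNA elements placed in the silencer position of a reporter plasmid. They were taken as all lines of both benchmark count tables whose project is YY1, out of 1414 elements in those tables. Of the 129 names, 127 give a single window of 200 bases and 2 join several overlapping windows at one place on chromosome 18. The YY1 elements made 2492 of 27126 constructs, of which 129, 1 for each element, had no enhancer.

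YY1 is a zinc finger transcription factor found in most tissues. It is known both as an activator and as a repressor of the genes it binds, and it takes part in bringing enhancers and promoters together. What an inserted YY1 element does to a reporter can therefore go either way, and the assay reads out the sum of all factors that bind the inserted sequence.

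The assay was MPRAduo, a reporter assay run on many plasmids at once. Each plasmid holds a test element and an enhancer, and barcodes in the GFP messenger RNA report their joint activity. The library was electroporated into GM12878, a lymphoblastoid B cell line, and RNA was recovered after 24 hours. The benchmark was measured in 2 runs, each with 4 RNA and 4 plasmid libraries that the submitters describe as biological replicates. Run 1 used the SE library and run 2 the ES library, and no genotype, drug or time course was part of the design. The letters name the order of silencer element and enhancer on the plasmid; the order and the plasmid pool cannot be told apart. All groups share the same untreated cell line, so no value speaks about other cell types or about YY1 at its native genomic places.

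The controls were 651 random elements, measured beside the same 21 enhancers, En01 to En21, and without an enhancer. Each YY1 element was present with 3 to 21 enhancers, with a median of 20. En16 was thinly filled, with 10 YY1 constructs passing the count minimum in run 1 and 1 in run 2. Libraries held 26879852 to 74076094 barcode counts in run 1 and 53900714 to 102106231 in run 2. The median plasmid count of a YY1 construct was 980 in run 1 and 886 in run 2, against 924 and 1034 for random constructs.

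The direction of every value rests on which columns are RNA. The authors' deposited log2 fold change ran opposite to the headings, with a correlation across 24896 constructs of -0.957 in run 1 and -0.999 in run 2 against the ratio of cDNA-headed to plmd-headed counts. Within the constructs that hold both an element and an enhancer it was -0.999 in each run (23473 constructs). Of the run 1 fold changes in the authors' deposited table, 23790 recur to the last digit in run 2, all but 10 of them on other constructs, so their scale is not that of run 1 alone; how this arose is not stated. The plmd-headed columns were therefore read as RNA and the cDNA-headed columns as plasmid. In that direction the positive control elements had a median element effect of 0.59 in run 1 and 1.59 in run 2, and the elements of REST, a repressor, had medians of -0.35 and -0.43. The plmd-headed libraries were also the less alike, with correlations of 0.806 to 0.837 in run 1 and 0.891 to 0.932 in run 2, against 0.968 to 0.971 and 0.944 to 0.949 for the cDNA-headed ones. Other columns run the other way. The deposited plasmid mean is the mean of the plmd-headed columns on all 27169 lines of each table, and the deposited number of barcodes, whose heading names plasmids, followed the plmd-headed counts (r = 0.975 in run 1 and 0.992 in run 2) more closely than the cDNA-headed ones (0.816 and 0.744). If the headings were right, every direction below would turn. The number of barcodes was for this reason not used as a measure of plasmid depth, and no construct in either table had fewer than 10.

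Values below are log2 effects: RNA against plasmid, relative to random elements beside the same enhancer. Above 0, the construct gave more RNA per plasmid than the reference level set by the random elements. An element effect is the mean over the enhancers of one element, computed in each library, and a pair effect is that of 1 element with 1 enhancer. The random medians were not exactly 0. In run 1 they were 0.06 for pairs, 0.08 without an enhancer and -0.06 for element effects. In run 2 they were -0.01, -0.02 and 0.01. A value given for 1 RNA library is that library against the mean of the plasmid libraries of its run. Such values share their plasmid side, so their spread is that of the RNA libraries only. A call is an adjusted p under 0.05, from limma for element effects and from edgeR's quasi-likelihood test for pairs, with Benjamini-Hochberg adjustment over everything tested in that run. No p was computed over the YY1 elements as a list.

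More YY1 elements were called higher than lower in both runs, and most were called higher in run 2, where the enhancer preceded the element. In run 1 the element effect could be computed for 125 of the 129, and 51 were higher than random and 16 lower, with 58 not called. The median YY1 element effect was 0.12 in run 1, with quartiles at -0.05 and 0.35, against a random median of -0.06. In run 2, 96 of 125 were higher, 16 lower and 13 not called, and the median was 0.70, with quartiles at 0.32 and 1.19, against 0.01 for random elements. The background matters here, since many random elements also differed from the random median. The called shares of run 1 over all 1374 elements were 23.9% higher and 23.3% lower, and over random elements 17% higher and 24.1% lower. In run 2 they were 45.8% and 29.1% over all 1368 elements, and 35.3% and 33.9% over random elements. The YY1 shares were 40.8% higher and 12.8% lower in run 1, and 76.8% and 12.8% in run 2. GFI1 elements had 33.3% and 10.2% in run 1, and 57.1% and 21.3% in run 2. CTCF elements had 23.75% and 26.25%, then 60.3% and 16.7%. For REST elements the shares were 12.0% and 57.8%, then 25.3% and 61.4%. For positive controls they were 66.7% and 7.58%, then 81.8% and 9.09%.

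The shift of the YY1 class was of like size in every RNA library of a run, each set against the same plasmid mean. The YY1 median minus the random median was 0.20, 0.20, 0.19 and 0.21 in RNA libraries 1 to 4 of run 1, and 0.70, 0.66, 0.63 and 0.72 in those of run 2. The 2 sets of library values do not overlap between the runs. Random elements spread widely, so most YY1 elements lay inside the random range. In run 1, 18 of 125 lay above the 95th percentile of the random elements (0.54) and 5 below their 5th percentile (-0.47). In run 2, 36 lay above it (1.09) and 1 below (-0.67). Only 2 YY1 elements in run 1 and 3 in run 2 exceeded the highest random element.

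The same elements tended to be high in both runs. Across the 125 YY1 elements the 2 element effects had a Pearson r of 0.70 and a Spearman rho of 0.66, and across 634 random elements 0.65 and 0.58; these correlate elements of the same cell line, not replicates. Higher in both runs were 46 of 125 (36.8%, against 13.9% of random and 21.1% of all elements). Lower in both were 8 (6.4%, against 13.6% of random and 14.2% of all elements). Of the 96 YY1 elements higher in run 2, 46 were higher, 6 lower and 44 not called in run 1. Of 634 random elements, 224 were higher in run 2, and 88 of these were higher and 13 lower in run 1. Of all 1368 elements, 626 were higher in run 2, and 289 of these were higher and 35 lower in run 1. Called in neither run were 9 YY1 elements, a count not made for random or all elements. The remaining 4 of the 129 had too few enhancers for an element effect: chr11:85854487-85854687, chr19:1269535-1269735, chr19:531828-532028 and chr5:36739882-36740082. Element effects correlated weakly with plasmid depth. Against the log2 plasmid count, Pearson r was 0.21 and Spearman rho 0.22 in run 1 and -0.13 and -0.097 in run 2 for YY1 elements. For random elements they were 0.26 and 0.30 in run 1 and -0.19 and -0.12 in run 2. The part of depth in the effects was not tested.

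Elements are named by the coordinates in their deposited names, for which no build could be taken from the labels. Nearby genes and sequences were therefore not used here. The strongest YY1 element over both runs was chr9:31519111-31519311. In run 1 its element effect was 2.07, 1.94, 2.05 and 2.09 in RNA libraries 1 to 4, with a mean of 2.04 (SE 0.059, limma adjusted p = 8.4e-13, 20 enhancers). In run 2 the libraries gave 2.64, 2.49, 2.61 and 2.63, with a mean of 2.59 (SE 0.052, limma adjusted p = 1.3e-22). All 4 libraries of a run lay close together, and 19 of its 20 pairs were called higher in each run. Its pair effects ran from 0.67 beside En21 to 3.22 beside En07 in run 1, and from 0.45 beside En18 to 3.66 beside En01 in run 2.

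The window chr18:9102638-9102838 was among the highest in both runs, at very different levels. Its libraries gave 1.07, 1.16, 1.18 and 1.21 in run 1 (mean 1.16, SE 0.045, limma adjusted p = 2.9e-11), the third highest value. In run 2 they gave 3.10, 3.06, 2.88 and 3.07 (mean 3.03, SE 0.054, limma adjusted p = 1.5e-23), the highest of all YY1 elements. No library of one run came near those of the other. It was called higher beside all 21 enhancers in run 1 and all 20 tested in run 2.

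The window chr9:32552243-32552443 was also high mainly in run 2. Its run 1 libraries gave 1.12, 0.73, 0.73 and 0.80, with a mean of 0.85 (SE 0.10, limma adjusted p = 1.0e-05) and 5 of 19 pairs called higher. Its run 2 libraries gave 2.52, 2.70, 2.54 and 2.73, with a mean of 2.62 (SE 0.10, limma adjusted p = 5.9e-17) and 18 of 19 pairs called higher. In run 1 the first library stood above the other 3.

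The window chr8:125432082-125432282 gave 0.08, 0.76, 0.56 and 0.63 in run 1, with a mean of 0.51 (SE 0.12, limma adjusted p = 0.0029). RNA library 1 was near 0 while the other 3 were well above it. In run 2 it gave 2.19, 2.15, 1.97 and 2.11 (mean 2.11, SE 0.061, limma adjusted p = 1.9e-19). Without En01 to En08 its run 1 effect was 0.30 and was not called (limma adjusted p = 0.096).

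The window chr19:4007662-4007862 was high in both runs but had a median of only 23.5 barcodes per construct in run 2. It gave 1.36, 1.61, 1.53 and 1.42 in run 1 (mean 1.48, SE 0.068, limma adjusted p = 1.4e-10), with 14 of 15 pairs called higher. In run 2 it gave 2.10, 1.66, 1.51 and 1.90 (mean 1.79, SE 0.20, limma adjusted p = 2.0e-08), with 4 of 15 pairs called. The spread between libraries was clearly wider in run 2.

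Of the other 3 among the 8 highest, chr19:6100581-6100781 had element effects of 1.07 (SE 0.061) and 1.61 (SE 0.043) in runs 1 and 2. The window chr19:3404624-3404824 had 1.05 (SE 0.080) and 1.56 (SE 0.095). The window chr5:32443942-32444142 had 1.12 (SE 0.049) and 1.27 (SE 0.066), the smallest gap between the runs among these 8. It was called higher beside all 20 enhancers in run 1, with pair effects from 0.86 to 1.55, the narrowest range of the 8 in that run. In run 2 its pair effects ran from 0.54 to 1.76, with 17 of 19 called.

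The elements that lowered the reporter did so less than the strongest raised it. The lowest over both runs was chr9:36450247-36450447. Its run 1 libraries gave -0.83, -0.76, -0.61 and -0.38, with a mean of -0.65 (SE 0.10, limma adjusted p = 9.4e-05). Its run 2 libraries gave -0.71, -1.24, -1.61 and -0.98, with a mean of -1.14 (SE 0.14, limma adjusted p = 1.4e-07). All 8 library values were below 0, and of its 17 pairs 4 were called lower in run 1 and 9 in run 2, with none higher.

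The window chr20:50191492-50191692 had element effects of -0.53 (SE 0.13) and -0.43 (SE 0.096), with RNA library 1 the lowest in both runs (-0.98 and -0.61). The window chr19:48330173-48330373 had -0.69 (SE 0.092) and -0.27 (SE 0.092), and in run 1 it was the lowest YY1 element. The window chr9:4366752-4366952 had -0.39 (SE 0.085) and -0.43 (SE 0.075). Few of their single pairs were called lower, at most 7 of 19. The run 1 effect of chr20:50191492-50191692 was not called without En01 to En08 (limma adjusted p = 0.051).

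The window chr19:5255065-5255265 had -0.57 (SE 0.078) in run 1 and -0.21 (SE 0.069) in run 2. In run 1 all 20 of its pair effects were below 0, down to -1.07 beside En20, yet in run 2 the pair with En20 was called higher (0.30, SE 0.11, edgeR adjusted p = 0.039). Its run 2 effect was not called without En01 to En08 (limma adjusted p = 0.050). The window chr19:2035766-2035966 had almost the same effect in both runs, -0.39 (SE 0.074) and -0.38 (SE 0.059), with 5 of 20 and 12 of 20 pairs called lower. Its values were -0.18, -0.34, -0.60 and -0.42 in run 1 and -0.42, -0.37, -0.43 and -0.30 in run 2, so the groups overlap.

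Single constructs, here called pairs and including those without an enhancer, were called higher more often than lower in both runs for YY1. In run 1, 362 of 2491 pairs were higher and 48 lower by edgeR, which is 14.5% and 1.93%. The shares over all 27124 pairs were 9.13% and 2.13%, and over random pairs 5.23% and 1.49%. In run 2, 1235 of 2462 were higher and 120 lower, which is 50.2% and 4.87%, against 26.9% and 12.6% over all 26920 pairs and 17.8% and 14.0% over random pairs. The share of YY1 calls that were higher was thus 88.3% in run 1 and 91.1% in run 2. Calls also leaned higher over all pairs, with 2477 higher and 579 lower in run 1 and 7232 and 3399 in run 2. Random pairs had 654 and 186 in run 1 and 2216 and 1738 in run 2. The YY1 share depends on the scaling. After scaling on summed random counts it was 68% (236 higher, 111 lower) and 86.1% (1099 and 178). That scaling lowered the median of all pairs from 0.10 to -0.11 in run 1 and from 0.10 to -0.03 in run 2. With TMM over all pairs, which leaves the activity of each enhancer in the effect, it was 65.8% (726 and 377) and 68.5% (1257 and 579). Calls of random or all pairs were not counted under these other scalings.

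The lower calls of run 1 were few and rested on all plasmid libraries. Without plasmid replicate 1, 2, 3 or 4 the count of 48 became 17, 16, 15 or 20. Of the 129 elements, 9 were called higher beside at least 10 enhancers in run 1 (6.98%, against 2.46% of random and 5.74% of all elements). In run 2, 65 were (50.4%, against 10.6% and 21.7%). Called lower beside at least 5 enhancers were 2 in run 1 (1.55%, against 0.154% and 1.35%) and 10 in run 2 (7.75%, against 22% and 19.7%). No pair beside an enhancer was called for 47 elements in run 1 (36.4%, against 58.9% and 50%) and for 3 in run 2 (2.33%, against 8.62% and 7.22%). Pairs called in both directions were found for 5 elements in run 1 (3.88%, against 1.54% and 2.41%) and 20 in run 2 (15.5%, against 19.7% and 19.7%).

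Among called pairs with at least 100 plasmid counts and 1 sign in all 4 libraries, the highest of run 1 beside an enhancer all held the window chr9:31519111-31519311. Beside En07 its 4 RNA libraries gave 3.36, 3.09, 3.29 and 3.16, with a pair effect of 3.22 (SE 0.12, edgeR adjusted p = 1.1e-07). Behind this were 4816, 9608, 7580 and 5693 RNA counts and 1688, 1443, 679 and 928 plasmid counts. Beside En06 and En05 its pair effects were 3.18 (SE 0.17) and 2.90 (SE 0.21). In run 2 the highest pairs were chr18:9102638-9102838 beside En01 (3.95, SE 0.10) and En02 (3.84, SE 0.14), and chr9:31519111-31519311 beside En01 (3.66, SE 0.099). The first of these gave 4.09, 3.85, 3.77 and 4.07 in its 4 RNA libraries, from 9581 to 14833 RNA counts and 2383 to 3753 plasmid counts.

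The lowest pairs were smaller in size and less deep. In run 1 the window chr9:36450247-36450447 beside En02 gave -2.33, -1.29, -0.82 and -1.59 (pair effect -1.42, SE 0.32, edgeR adjusted p = 0.017), from only 33 to 158 RNA counts. The others were chr9:37029564-37029764 beside En05 (-1.38, SE 0.32) and chr19:6491868-6492068 beside En17 (-1.26, SE 0.31). Each of these 3 calls was lost without at least one plasmid library: 2, 3 or 4 for the first (adjusted p 0.050 to 0.065), 1, 3 or 4 for the second (0.059 to 0.093) and 1, 2, 3 or 4 for the third (0.051 to 0.094). Counting every other setting tried, left-out libraries included, the calls were lost in 3, 4 and 6 settings. The highest adjusted p there (edgeR or DESeq2) was 0.065, 0.10 and 0.21.

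In run 2 chr9:36450247-36450447 beside En20 gave -2.24, -1.88, -2.14 and -2.11, with a pair effect of -2.11 (SE 0.24, edgeR adjusted p = 9.3e-07). Beside En08 it gave -1.50 (SE 0.30), and chr9:38170363-38170563 beside En20 gave -1.39 (SE 0.22). Under TMM over all pairs both pairs with En20 turned above 0, to 0.42 and 1.15, because that scaling does not remove the activity of En20 itself. Relative to random elements beside En20 all 4 libraries of both pairs were below 0.

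Without an enhancer, YY1 elements also raised the reporter more often than random ones. In run 1, 30 of 129 were higher and 1 lower by edgeR, 23.3% and 0.775%, against 16.9% and 1.63% of all 1414 elements without an enhancer and 9.68% and 2.30% of random ones. In run 2, 68 were higher and 4 lower, 52.7% and 3.10%, against 30.7% and 10.6% of all and 19.4% and 14.1% of random elements. The counts of the runs are not at like depth. The median plasmid count of these YY1 constructs was 1090 in run 1 and 4465 in run 2, and the median SE 0.26 and 0.14. Their median effect was 0.45 and 0.49. The part of depth in the number of calls was not tested. Other classes were also called higher: GFI1 elements in 24.5% and 41.6% of cases in runs 1 and 2, and CTCF elements in 16.3% and 39.1%. For REST elements the shares higher were 14.1% and 18.8%, and for positive controls 67.6% and 82.4%. The YY1 median minus the random median was 0.42, 0.42, 0.37 and 0.28 in RNA libraries 1 to 4 of run 1, and 0.56, 0.55, 0.45 and 0.48 in those of run 2. The runs do not overlap here either, but the gap between them is small. With the summed random counts the calls were 19 higher and 6 lower in run 1 and 55 and 11 in run 2, and with TMM over all pairs 22 and 15, and 6 and 118. TMM lowered the median of all elements without an enhancer to -1.94 in run 2. Calls of random or all elements were not counted under these other scalings. Of the 129, 29 were higher in both runs (22.5%, against 7.99% of random and 15.2% of all elements).

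The highest no-enhancer effects belonged to the same 3 elements in both runs. The window chr9:31519111-31519311 gave 2.65, 3.24, 2.99 and 3.06 in run 1 (3.0, SE 0.15, edgeR adjusted p = 6.3e-07) and 2.82, 2.94, 3.04 and 3.17 in run 2 (3.0, SE 0.099, edgeR adjusted p = 3.5e-14). The library values of both runs overlap. The window chr18:9102638-9102838 had 2.89 (SE 0.11) and 3.25 (SE 0.058), and chr19:4007662-4007862 had 2.44 (SE 0.15) and 2.90 (SE 0.090). For chr18:9102638-9102838 the runs were thus much closer without an enhancer than beside one.

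The one lower call of run 1 was chr8:30083019-30083219 (-1.08, SE 0.31, edgeR adjusted p = 0.049), with 65 to 192 RNA counts. Leaving out RNA replicate 1, 2 or 3, or any plasmid replicate, moved its adjusted p to between 0.063 and 0.18. The count of lower calls in run 1 was 0 without any one plasmid replicate and 2 without RNA replicate 1. In run 2 the lowest were chr19:6491868-6492068 (-0.54, SE 0.17), chr5:14168157-14168357 (-0.46, SE 0.095) and chr6:787034-787234 (-0.31, SE 0.11). The first lost its call without RNA replicate 2 or 3 or plasmid replicate 4 (adjusted p 0.051 to 0.058), and the third without RNA replicate 2 or 3 or any plasmid replicate (0.068 to 0.11). The window chr5:14168157-14168357 gave -0.38, -0.52, -0.47 and -0.46 and was called without any one library too. Over all 129, the 4 lower calls became 2 without RNA replicate 2 or plasmid replicate 3 or 4. Across the 125 elements, effects beside enhancers and without one had a Pearson r of 0.76 in run 1 and 0.86 in run 2.

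The difference between the runs was tested for each element with limma over the 16 libraries, using the enhancers whose pair passed in both runs. The effect was larger in run 2 for 84 of 125 YY1 elements and smaller for 8, which is 67.2% and 6.40%, against 38.7% and 14.0% of all 1368 elements and 28.7% and 16.9% of random ones. YY1 was not alone in this. The shares larger and smaller were 59.0% and 6.41% for CTCF elements and 72.7% and 7.58% for positive controls. They were 40.6% and 13.0% for GFI1 and 21.7% and 27.7% for REST elements. The YY1 median difference was 0.54 and the random median 0.07. Above the random median lay 102 of 125 YY1 elements (81.6%), against 58.5% of all elements. The random elements themselves spread more in run 2, with an SD of 0.53 against 0.31 in run 1. In units of that SD the YY1 median was 0.40 in run 1, against a random median of -0.21. In run 2 it was 1.33, against 0.03 for random elements.

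The largest order differences were 1.87 (SE 0.072, limma adjusted p = 2.9e-17) for chr18:9102638-9102838, 1.78 (SE 0.15) for chr9:32552243-32552443 and 1.60 (SE 0.14) for chr8:125432082-125432282. All 4 libraries of run 2 lay above all 4 of run 1 for each. The smallest were -0.49 (SE 0.19, limma adjusted p = 0.031) for chr9:36450247-36450447, -0.46 (SE 0.10) for chr6:159151413-159151613 and -0.39 (SE 0.074) for chr9:36140452-36140652. The call of chr9:36450247-36450447 was lost without RNA replicate 4 or plasmid replicate 3 of run 1, and without RNA replicate 2 or 3 or plasmid replicate 3 or 4 of run 2 (adjusted p 0.050 to 0.084).

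Some elements were called in opposite directions by the 2 runs. Lower in run 1 and higher in run 2 were 6 of 125 (4.8%, against 2.05% of random and 2.56% of all elements). Higher in run 1 and lower in run 2 were 3 (2.4%, against 0.473% and 0.585%). These counts are small, and their difference from the background was not tested. Of the 6, chr8:30083019-30083219 gave -0.84, -0.99, -0.38 and -0.53 in run 1 (element effect -0.68, SE 0.14) and 0.45, 0.64, 0.41 and 0.57 in run 2 (0.52, SE 0.13). Its run 1 and run 2 libraries do not overlap. Its neighbour chr8:30083041-30083241, which shares 178 bases with it, gave -0.35 (SE 0.13) and 0.39 (SE 0.13). The 3 of the other kind included chr6:159151413-159151613 (0.18, SE 0.063, and -0.28, SE 0.076) and chr9:36140452-36140652 (0.12, SE 0.049, and -0.27, SE 0.056).

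The YY1 shift was present beside most enhancers, and its size depended on which. With En16 included, the YY1 median was above the random median beside 19 of 21 enhancers in run 1 and 21 of 21 in run 2. It was above in all 4 RNA libraries beside 16 of 21 enhancers in run 1 and 20 of 21 in run 2. Leaving out the thinly filled En16, the difference ran in run 1 from -0.07 beside En20 to 0.48 beside En06. In run 2 it ran from 0.19 beside En20 to 1.05 beside En10. Beside En10 the 4 RNA libraries of run 2 lay between 1.03 and 1.10, and beside En20 between 0.21 and 0.24. Higher enhancer numbers went broadly with higher activity on plasmids that carried the enhancer alone: the log2 RNA over plasmid of En01 was -0.91 in run 1 and that of En20 3.71, and in run 2 they were -2.18 and 2.93.

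Relative to random elements, the YY1 shift was smaller beside the strong enhancers, En17 to En21, than beside En01 to En08 in both runs. The median difference of YY1 elements between these groups, minus that of random elements, was -0.21 in run 1 (RNA libraries -0.27 to -0.15). In run 2 it was -0.17 (-0.28 to -0.02). In run 1 the median YY1 effect itself was 0.20 beside En01 to En08 and 0.01 beside En17 to En21. Of the 125 elements, 92 had a lower value beside the latter, called or not. For random elements these medians were -0.06 and -0.01, and 294 of 631 had a lower value. In run 2 the YY1 medians were 0.57 and 0.69, with 63 of 123 lower, and those of random elements -0.08 and 0.11, with 236 of 627 lower. The difference between the enhancer groups was tested with limma for each element. In run 1, 0 of 125 YY1 elements were higher beside En17 to En21 and 18 lower, 0.00% and 14.4%, against 0.293% and 9.81% of all 1366 elements and 0.317% and 4.28% of random ones. At an unadjusted p under 0.05 in limma, 35 differed in either direction (28%, against 24.4% of all and 17.1% of random elements). The count of 18 lower became 10, 11, 11 or 11 without plasmid replicate 1, 2, 3 or 4. In run 2, 6 of 123 were higher and 18 lower, 4.88% and 14.6%, against 7.40% and 14.4% of all 1351 and 11.5% and 8.13% of random elements. The YY1 share in run 2 was near that of all elements. The median differences of GFI1, CTCF, REST and positive control elements also lay below the random median in both runs. Their shares lower were 12.3%, 6.25%, 25.3% and 40.9% in run 1, and 13.1%, 19.5%, 23.2% and 60% in run 2.

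The elements lower beside strong enhancers in both runs were 8 of 123 (6.5%, against 1.91% of random and 5.48% of all elements). That share was near the one of all elements. The window chr9:31519111-31519311 was among the 3 most negative in each run. Its mean effect was 2.55 beside En01 to En08 and 1.41 beside En17 to En21 in run 1, a difference of -1.13 (SE 0.14, limma adjusted p = 0.00087). In run 2 it was 3.25 and 1.64, a difference of -1.61 (SE 0.15, adjusted p = 0.00038). In neither run did the library values of the enhancer groups overlap.

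The other most negative differences of run 1 were -1.34 (SE 0.32) for chr18:4267750-4267950 and -1.15 (SE 0.12) for chr19:4007662-4007862. The window chr18:4267750-4267950 went from 0.37 beside the weak enhancers to -0.97 beside the strong ones, where the libraries ranged from -2.0 to -0.50. Its call was lost without plasmid replicate 1, 2, 3 or 4 (adjusted p 0.062 to 0.087). In run 2 the others were chr8:125432082-125432282, from 2.64 to 1.36 (-1.28, SE 0.13), and chr19:6100581-6100781, from 2.04 to 0.81 (-1.24, SE 0.12).

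A few elements were higher beside strong enhancers in run 2. The window chr8:30083041-30083241 went from -0.11 beside En01 to En08 to 0.83 beside En17 to En21 (0.94, SE 0.14, limma adjusted p = 0.0022). The window chr11:61532234-61532434 went from 0.48 to 1.38 (0.90, SE 0.18), and chr19:572538-572738 from 0.66 to 1.42 (0.76, SE 0.13). The calls of chr11:61532234-61532434 and chr19:572538-572738 were lost without En21 (adjusted p 0.093 and 0.076). None of the 3 was called in run 1.

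Several YY1 windows overlap, so they are not independent elements. The densest stretch lies on chromosome 18, where 7 windows starting between 712282 and 712408 are offset by multiples of 18 bases. Along it the run 2 element effect was 1.18 and 1.20 for the windows starting at 712282 and 712300 and 0.86 at 712318. It was 0.40, 0.24, 0.91 and 0.35 at 712336, 712372, 712390 and 712408. In run 1 the values were 0.42, 0.35, 0.14, 0.20, -0.01, 0.03 and 0.28. The first 2 windows, which share 182 bases, were called higher by limma in both runs, whereas those starting at 712336 and 712372 were called in neither. The uncalled windows had medians of 22 to 31 barcodes and SEs of 0.15 to 0.19. The first 2 had 119 to 259 barcodes and SEs of 0.047 to 0.12. In run 2 the limma adjusted p at 712336 was 0.059. The run 2 value at 712390 had an SE of 0.19, with 1 of 10 pairs called. The contrast of calls is thus not a test of whether the windows differ.

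Overlapping windows offset by at most 55 bases formed 18 pairs, which were compared beside their shared enhancers. A two-sided exact permutation test of 4 RNA against 4 plasmid libraries was used in each run, which cannot go below p = 0.0286. None of the 36 comparisons passed after Benjamini-Hochberg adjustment, where the smallest adjusted p was 0.0935. With that floor and 36 comparisons, no single comparison could pass alone, whatever its size. The test therefore cannot decide whether any 1 pair of windows differs. The largest difference of run 2 was between chr18:2655978-2656178 and chr18:2656033-2656233, which share 145 bases. The second minus the first was -0.47 ± 0.21 (SD of the RNA libraries, n = 4) in run 1 and -0.83 ± 0.034 in run 2. Each had an exact permutation p = 0.0286 and an adjusted p of 0.0935. In run 2 the first window had an effect of 1.29 and the second 0.45, and all 4 libraries had the same sign in both runs. The windows chr19:3404570-3404770 and chr19:3404624-3404824 differed by 0.41 ± 0.19 (SD of the RNA libraries, n = 4) and 0.34 ± 0.071. The second was the higher in all 4 RNA libraries of each run.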

How the data were processed

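Per the file headers, each deposited benchmark file gives unnormalized counts by construct for 4 RNA and 4 plasmid libraries, 1 file a run. The authors' deposited log2 fold change, given beside them, was used for direction only. No aligner or build was found in the sources used here. Lines without an assigned element held 0.964% to 1.73% of counts and were dropped. 

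Pairs whose plasmid libraries averaged 20 counts or more were tested with edgeR 4.0.16 (quasi-likelihood), each library scaled on the median ratio of the random elements beside the same enhancer. Element effects are means over at least 10 enhancers of log2(count + 1) minus the random median, tested with limma 3.58.1; enhancer groups needed 3 enhancers each. Adjustment (Benjamini-Hochberg) covered all elements or pairs of a fit, and scripts were tested on simulated data. Software was R 4.3.3 with the data.table package (version 1.17.8), Python 3.11.15, numpy 2.4.6, pandas 2.3.3 and scipy 1.17.1. DESeq2 1.42.0 was an alternative.

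Named were the 8 highest and 6 lowest elements by the mean of both runs. Past the threshold, the 3 most extreme in each direction were named for order, for enhancer groups and for no-enhancer effects; pairs also needed 100 plasmid counts and 1 sign throughout. The members, lists and rules were chosen with earlier results of these data known. Elements opposite in the 2 runs, and the overlapping windows, were picked after their values were seen. Replicate numbers paired the libraries at most weakly: deviations of RNA and plasmid libraries with the same number correlated at 0.0034 to 0.022. The highest correlation of an RNA library with a plasmid library of another number was -0.0045 to 0.0077. PCR reads are not independent molecules.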

Additional observations from a re-analysis of the deposited data

Results flagged for a closer look

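Among the element effects of the 14 highest and lowest elements and the class shifts by library, 1 group had a library past Dixon's 95% critical value, which sets a library's gap to its nearest neighbour against the range of the 4: for chr19:6100581-6100781 in run 2 one library gave 1.54 and the others had a median of 1.63. At that level chance passes about 1 of 20 groups. The gaps in run 1 of chr9:32552243-32552443 (1.12 against 0.73, 0.73 and 0.80) and chr8:125432082-125432282 (0.08 against 0.76, 0.56 and 0.63) are larger on the log2 scale but did not pass it, since the ranges are wider too.

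The effect differed between the runs, by the limma test of the difference itself, for chr18:9102638-9102838 (1.87), chr9:32552243-32552443 (1.78), chr8:125432082-125432282 (1.60), chr9:36450247-36450447 (-0.49), chr6:159151413-159151613 (-0.46) and chr9:36140452-36140652 (-0.39). The order of element and enhancer and the plasmid pool cannot be told apart.

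The effect differed between strong and weak enhancers, by the limma test of that difference, in run 1 for chr18:4267750-4267950 (-1.34), chr19:4007662-4007862 (-1.15) and chr9:31519111-31519311 (-1.13). In run 2 it differed for chr8:30083041-30083241 (0.94), chr11:61532234-61532434 (0.90), chr19:572538-572738 (0.76), chr9:31519111-31519311 (-1.61), chr8:125432082-125432282 (-1.28) and chr19:6100581-6100781 (-1.24).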

How the results depend on the processing

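Of 1102 repeats of single named results under other settings, not counting the columns read as headed, 1053 had the same direction and the same side of the threshold, 47 lost the call and 2 turned. The 2 that turned were run 2 pairs with En20 under TMM over all pairs, chr9:36450247-36450447 at 0.42 and chr9:38170363-38170563 at 1.15; TMM leaves the enhancer's own activity in the effect.

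Reading the columns as headed turns every direction by construction. The YY1 counts higher and lower were then 16 and 51 for element effects of run 1 (median minus random median -0.18), 16 and 98 in run 2 (-0.70), 8 and 85 for order (-0.48), 1 and 30 without an enhancer in run 1 (-0.37), 4 and 67 in run 2 (-0.51), 48 and 362 for pairs of run 1 (-0.20), and 120 and 1243 in run 2 (-0.66).

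TMM gave 726 higher and 377 lower pairs in run 1 (median difference 0.24), 579 lower in run 2 (0.75), 15 lower without an enhancer in run 1, and 6 higher and 118 lower in run 2. Summed random counts gave 236 and 111 pairs in run 1 (0.18), 19 and 6 without an enhancer in run 1, and 11 lower in run 2. DESeq2 gave 81 lower pairs and 2 lower without an enhancer in run 1. Without En01 to En08 the element effects of run 1 had 31 higher (median difference 0.15), and without En17 to En21 the median difference was 0.22. The median over enhancers gave 0.61 for element effects of run 2, and dividing by the random SD gave 0.58 for order. Without En21, 1 element was higher beside strong enhancers in run 1 and 2 in run 2, and a minimum of 100 plasmid counts gave 12 higher and 32 lower in run 2.

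With the replicate number as a block, lower calls in run 1 were 10 for enhancer groups, 19 for pairs and 0 without an enhancer, and no other count of YY1 calls moved by over 1.5 times. The numbers paired the libraries at most weakly.

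Leaving out 1 library at a time gave ranges of higher calls, lower calls and median difference. For element effects these were 41 to 51, 13 to 18 and 0.18 to 0.22 in run 1, and 92 to 96, 15 to 17 and 0.65 to 0.72 in run 2. For order they were 81 to 87, 6 to 9 and 0.44 to 0.50. For pairs they were 242 to 421, 15 to 62 and 0.19 to 0.21 in run 1, and 1155 to 1234, 94 to 116 and 0.64 to 0.67 in run 2. Without an enhancer they were 25 to 33, 0 to 2 and 0.32 to 0.40, and 63 to 70, 2 to 4 and 0.46 to 0.54. For enhancer groups they were 0 to 0, 10 to 23 and -0.26 to -0.18, and 4 to 7, 15 to 20 and -0.22 to -0.12. Causes were not tested.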
